A study of Homo sapiens with 12 samples.

Results

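The comparison described here set T24 cells transfected with an siRNA against FDPS (siFDPS) beside T24 cells transfected with a negative control siRNA (siNC). T24 is an established cell line from a human bladder transitional cell cancer. All 3 siFDPS and all 3 siNC libraries were used, which are 6 of the 12 RNA sequencing libraries of the study, and the other 6 were 3 siSQLE and 3 siYY1 libraries of the same cells. The labels give the genotype of all cells as wild type and number 3 biological replicates in each group, from separate experiments. A single siRNA against FDPS (siFDPS-1, as the methods name it) was sequenced, so effects of this siRNA on other transcripts cannot be told apart from effects of lower FDPS. The transfection time is not given in the sources used here. The enzymes of the mevalonate pathway, ECM-receptor interaction and focal adhesion are not the subject, and the values below are arranged by other processes. Genes of these sets were left out only of the ranking over all genes. The lists and preset genes below were not cleared of them and may include some.

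FDPS makes farnesyl diphosphate, from which cells build cholesterol, the geranylgeranyl and farnesyl groups that anchor Rab and Ras proteins in membranes, dolichol and the side chain of ubiquinone. SQLE acts further along the branch that leads to cholesterol only. The siSQLE knockdown is thus in the same pathway and does not target the other branches. YY1 is a transcription factor that is not an enzyme of the pathway. Cells sense sterols through SREBP factors, and they sense nutrients at the lysosome. TFEB and its relatives are transcription factors that switch on lysosomal genes.

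FDPS (ENSG00000160752, chromosome 1 of GRCh38, 155308748 to 155320666, plus strand) was measured first, as a check of the labels. It had 83.6, 90.4 and 87.1 CPM (counts relative to the total of the library, after TMM scaling) in the siNC libraries and 24.6, 24.3 and 24.7 CPM in the siFDPS libraries. The groups did not overlap, and the difference was −1.83 ± 0.0621 on the log2 scale (adjusted p = 9.7e-06). FDPS was above siNC in siSQLE libraries, at 159 to 170 CPM (log2 fold change 0.90, adjusted p = 0.00023). It was also above siNC in siYY1 libraries, at 134 to 137 CPM (0.61, adjusted p = 0.00013). Comparisons of siFDPS with these libraries therefore set lowered FDPS beside raised FDPS. Here and below, values after ± are standard errors of the fit, log2 fold changes are of siFDPS against siNC unless another group is named, and they and their adjusted p come from edgeR's quasi-likelihood test across all genes, with a threshold of 0.05 after Benjamini-Hochberg adjustment.

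The total count lay between 48679901 and 60728086 in the siNC libraries and between 51307581 and 56784233 in the siFDPS libraries. Genes encoded in mitochondria held 4.83% to 4.90% of the counts in siNC and 5.20% to 5.39% in siFDPS libraries. Of the 13 markers of luminal and basal urothelium, UPK1B, UPK3A, KRT6A and KRT14 had at most 3 counts in each of the 6 libraries, and PPARG, FOXA1 and CD44 had at least 788 in each. PPARG, a luminal transcription factor, had 1274 to 1482 counts in siNC and 3937 to 5005 counts in siFDPS libraries. FOXA1, another luminal factor, was lower, with 1115 to 1278 and 788 to 887 counts, as was GATA3, with 59 to 71 counts in siNC and 52, 27 and 8 counts in siFDPS libraries. UPK2, a luminal uroplakin, had 11 to 23 and 6 to 12 counts. Markers of endothelium and fibroblasts were low, at a summed level of at most 1.55 CPM for the 4 endothelial markers and at most 6.70 CPM for the 4 fibroblast markers. Of the 5 leukocyte markers, CD68, which also lies in lysosomes, had 213 to 399 counts in siNC and 1446 to 1873 in siFDPS libraries. CD14 went the other way, with 133 to 172 and 35 to 50 counts, whereas PTPRC had at most 21 counts in each library and CD3E had 0. The summed level of these 5 markers was 7.83 to 9.75 CPM in siNC and 28.1 to 34.2 CPM in siFDPS libraries, and CD68 was the only one of the 5 with more counts in all siFDPS than in all siNC libraries.

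The deposited counts are given for each annotated transcript, and in some genes they moved from one transcript to another among replicates of a group. Of the 19065 genes tested, 69.0% had the same most counted transcript in all 6 libraries. Some named genes overlap another annotated gene on the same strand, often a small RNA or pseudogene, and reads of such pairs may have been counted for either gene. They are CDC42, RABGGTB, CTSD, HEXA, RRAGC, OSBPL1A, ELOVL1, FADS2, PCNA, RRM2, POLA1, MDM2, GDF15, DDIT3, ASNS, NCL, RRP12, NDUFS1, NDUFV2, ATP5MF, SLC2A1, LDHA, ALDOC, PFKFB4, PSMB5, PSMB10, PSME2, IFIT2, CDH1, CDH2, ZEB1, S100A4, ASAP1, LCP1, CDK14, AL353625.1 and SLC48A1, and their values are uncertain to that extent.

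A large part of the transcriptome differed between siFDPS and siNC libraries. Of 19065 genes tested, 4600 (24.1%) were higher and 5088 (26.7%) were lower in siFDPS libraries, together 50.8%, with a median log2 fold change of −0.02 over all genes. These shares are the background for every list of genes below. The CPM of the groups did not overlap in 61.0% of the genes tested, so that groups apart from each other were common. Changes of at least 2-fold were fewer, with 1400 genes (7.34%) higher and 2248 (11.8%) lower. Interferon response genes, glycolysis and hypoxia genes, mitosis genes and fatty acid genes were mostly lower, and lysosome genes, actin genes, stress response genes and cytokines were mostly higher. Respiratory chain and proteasome genes stayed near the background in both directions.

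**Figure D1:**
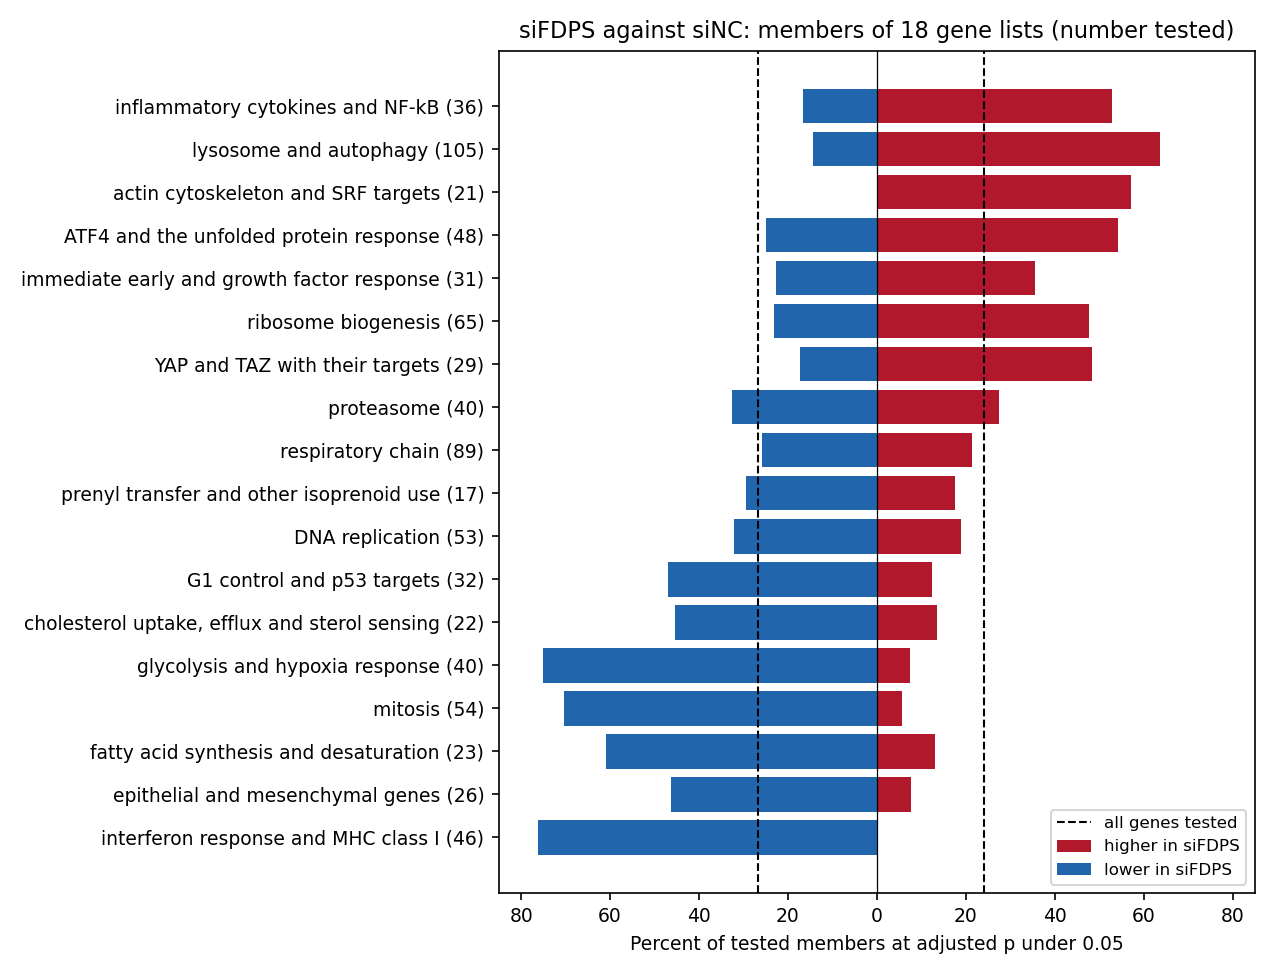
Percent of the tested members of 18 gene lists that were higher (red, to the right) or lower (blue, to the left) in 3 siFDPS against 3 siNC libraries at an adjusted p under 0.05 from edgeR, with the number of members tested in parentheses. The dashed lines mark all genes tested, at 24.1% higher and 26.7% lower; the lysosome list reaches 63.8% higher and the interferon list 76.1% lower.

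**Figure D2:**
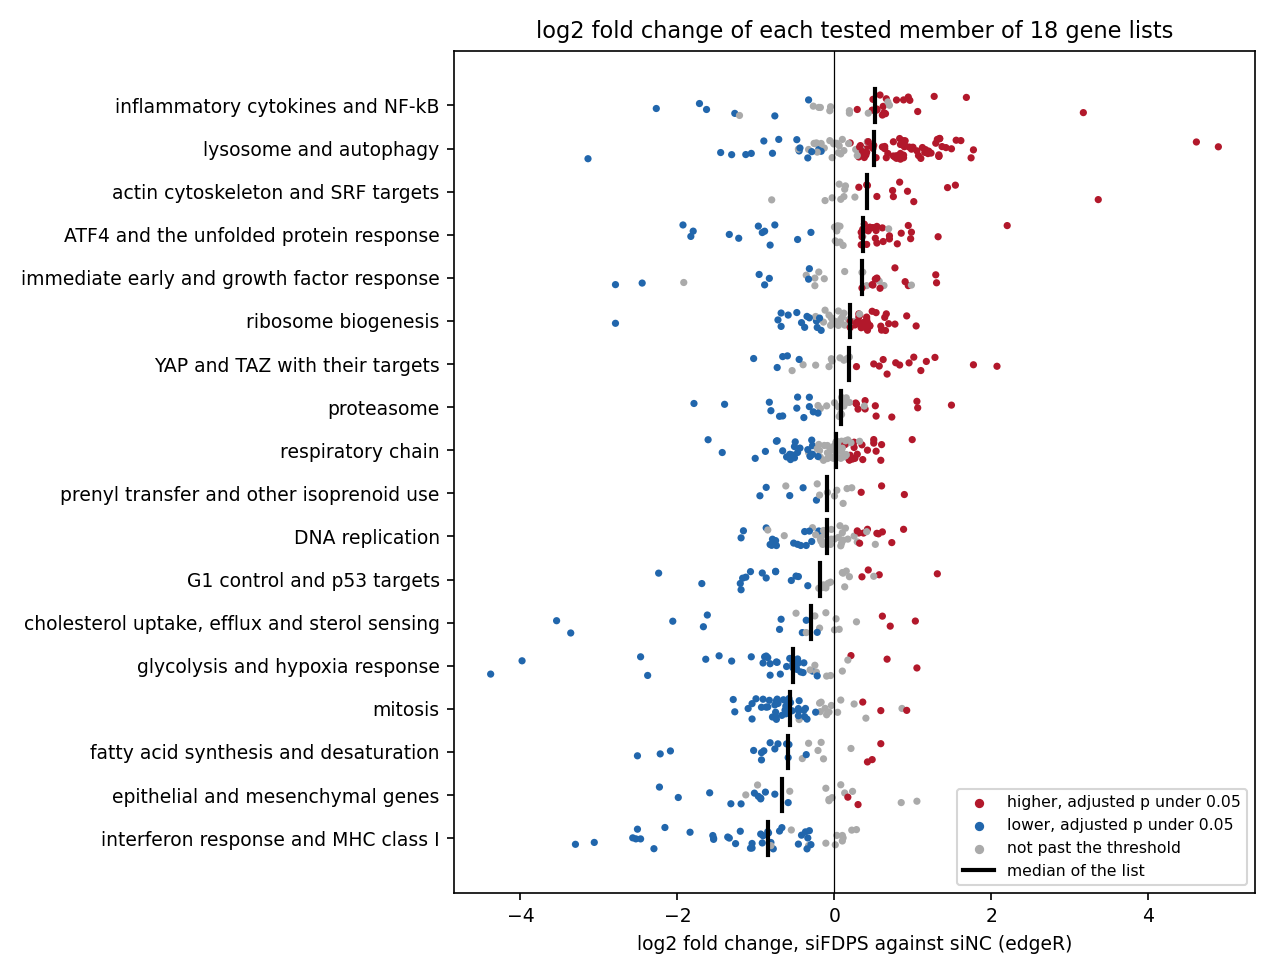
Log2 fold change of each tested member of the 18 lists, as points coloured by call, with the median of each list as a black bar. Medians run from −0.85 for the interferon list to 0.51 for the cytokine list, and single members such as CA9 (−4.38) and GPNMB (4.89) lie far from the median of their own list.

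Lysosome and autophagy genes were higher as a group. Of 105 members tested, 67 were higher (63.8%) and 15 were lower (14.3%), with a median log2 fold change of 0.50. Among the roles within the list, membrane proteins of the lysosome were higher in 12 of 13 genes and subunits of the V-ATPase, the proton pump that acidifies the lysosome, in 14 of 18. No member of these roles was lower, at an unadjusted p under 0.05 or with DESeq2 either. Of the hydrolases and their activators, 26 of 46 were higher and 9 were lower. Autophagy genes were higher in 9 of 17 and lower in 3, and of the 8 genes for nutrient sensing at the lysosome, 6 were higher and 2 were lower.

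The RRAGC and LAMP1 promoters are shown because these genes rose and hold the letters CACGTG, the core of the sites that TFEB, TFE3 and MITF bind, and the CTSD promoter because CTSD is a lysosomal protease with the same letters. Windows of 30 bases were taken from RefSeq (GRCh38.p14) promoters of 300 bases, from 250 bases before to 50 bases after the gene start. Capitals mark CACGTG, which reads the same on both strands.
RRAGC, chr1:38859867-38859896, minus strand: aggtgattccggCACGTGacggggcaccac
CTSD, chr11:1763957-1763986, minus strand: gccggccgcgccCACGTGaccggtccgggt
LAMP1, chr13:113297035-113297064, plus strand: accaggccgggtCACGTGggtccagggtca
LAMP1, chr13:113297051-113297080, plus strand: tgggtccagggtCACGTGccgctgcgggtc
LAMP1, chr13:113297068-113297097, plus strand: gccgctgcgggtCACGTGccgctgcgggtc
LAMP1, chr13:113297085-113297114, plus strand: gccgctgcgggtCACGTGtcggcctgcatc
LAMP1, chr13:113297199-113297228, plus strand: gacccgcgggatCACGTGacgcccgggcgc
LAMP1, chr13:113297226-113297255, plus strand: cgcggcgcagctCACGTGacaagcgctgcc
The letters stand in 7.26% of the 35116 promoters of the table and in 17 of the 79 promoters found for the 106 members of the list (21.5%). They were in 15 of 49 promoters of members that were higher in siFDPS libraries (30.6%), in 1 of 11 of members that were lower (9.09%) and in 1 of 18 of members that did not pass the threshold (5.56%). These shares are a description and were not tested. The 35116 promoters were not limited to the genes tested, and no share was taken over all genes higher in siFDPS libraries.

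RRAGC encodes a Rag GTPase that ties amino acid supply to mTORC1 at the lysosome. It had 81.4, 79.7 and 85.8 CPM in siNC and 295, 276 and 271 CPM in siFDPS libraries. Every siFDPS library was more than 3-fold above every siNC library, with a log2 fold change of 1.77 ± 0.062 (adjusted p = 9.7e-06). LAMP1, a main glycoprotein of the lysosomal membrane, had 203, 219 and 197 CPM in siNC and 478, 468 and 465 CPM in siFDPS libraries (log2 fold change 1.19 ± 0.0573, adjusted p = 1.8e-05). HEXA, a subunit of beta-hexosaminidase that is defective in Tay-Sachs disease, had 152, 168 and 160 CPM in siNC and 308, 284 and 300 CPM in siFDPS libraries (log2 fold change 0.90, adjusted p = 5.8e-05). The groups did not overlap for either gene.

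GPNMB, a membrane glycoprotein of lysosomes and melanosomes, had the highest log2 fold change of the list (chromosome 7, 23235967 to 23275108, plus strand). It had 0.698, 0.774 and 0.791 CPM in siNC and 24.2, 23.4 and 19.8 CPM in siFDPS libraries. The gene was thus close to absent in siNC and plainly present in siFDPS libraries, with a log2 fold change of 4.89 ± 0.139 (adjusted p = 8e-06). CTSD rose by less, from 247 to 285 CPM in siNC to 311 to 356 CPM in siFDPS libraries (log2 fold change 0.33, adjusted p = 0.014).

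Some members went the other way. CTSS, a cysteine protease of antigen-presenting cells, fell from 53.6, 54.8 and 48.5 CPM to 5.78, 6.18 and 5.82 CPM (log2 fold change −3.14 ± 0.0847, adjusted p = 8e-06). IDUA, which degrades glycosaminoglycans, fell with a log2 fold change of −1.31. TFEB itself was low in all libraries and fell, from 2.20 to 3.43 CPM in siNC to 0.777 to 1.25 CPM in siFDPS libraries (log2 fold change −1.45, adjusted p = 0.0031). MITF (−0.33, adjusted p = 0.1) and TFE3 (0.06, adjusted p = 0.45) did not pass the threshold, although MITF did with all 12 libraries in one fit (−0.31, adjusted p = 0.044). SQSTM1, the autophagy receptor p62, fell by 0.17 on the log2 scale (adjusted p = 0.018), a call that was lost with DESeq2 (adjusted p = 0.075) and without siNC replicate 1, siFDPS replicate 1 or siFDPS replicate 2 (adjusted p = 0.06 to 0.1).

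Against siSQLE libraries, 62 of 106 tested members of the lysosome list were higher and 15 lower in siFDPS libraries, where 24.1% of all genes were higher and 25.7% lower (49.7% together). Against siYY1 libraries 72 were higher and 12 lower, where 28.2% of all genes were higher and 29.0% lower (57.1% together). These shares are the background for all later counts against siSQLE and siYY1 libraries. GPNMB had 3.85 to 4.76 CPM in siSQLE and 0.786 to 1.18 CPM in siYY1 libraries, and siFDPS was above both (log2 fold change 2.40 against siSQLE and 4.64 against siYY1). RRAGC was 1.59 above siSQLE and 1.31 above siYY1 libraries on the log2 scale, and HEXA 0.90 and 1.24. LAMP1 differed less, by 0.46 and 0.47. All these differences passed the threshold (adjusted p at most 0.0014). CTSD did not differ from siSQLE past the threshold (log2 fold change 0.08 ± 0.0667).

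**Figure D3:**
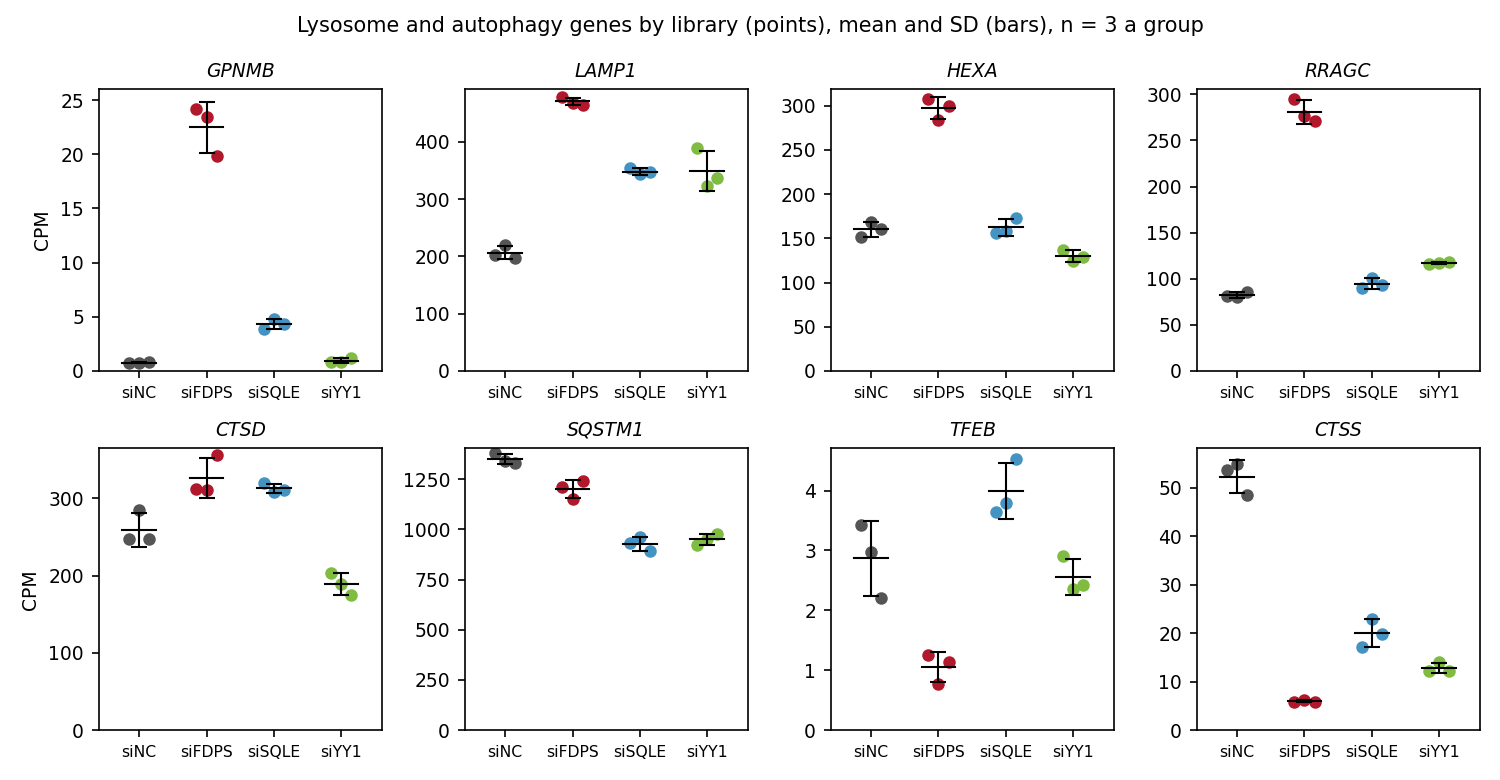
CPM of 8 lysosome and autophagy genes in each of 12 libraries (points, 3 in each of siNC, siFDPS, siSQLE and siYY1), with the mean as a line and the SD as error bars; each vertical axis starts at 0. GPNMB, LAMP1, HEXA and RRAGC are highest in siFDPS libraries, and CTSS and TFEB are lowest there.

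Genes of cholesterol uptake, efflux and sterol sensing were lower more often than the background. Of 22 tested, 3 were higher (13.6%) and 10 lower (45.5%), with a median log2 fold change of −0.30. VLDLR, a receptor for triglyceride-rich lipoproteins, had 49.5, 56.4 and 50.4 CPM in siNC and 12.7, 12.7 and 12.2 CPM in siFDPS libraries (log2 fold change −2.06 ± 0.0809, adjusted p = 1.1e-05). The 3 siFDPS libraries were the lowest of the 12. VLDLR was lower than in siSQLE by a log2 fold change of −1.95 and than in siYY1 by −0.50, both past the threshold.

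SCARB1, which takes up cholesterol from HDL, fell by 0.70 on the log2 scale. INSIG1, which holds SREBP factors back in the endoplasmic reticulum, went up, from 25.6, 27.2 and 24.8 CPM to 52.0, 51.9 and 54.3 CPM (log2 fold change 1.03 ± 0.0659, adjusted p = 4.9e-05). Of the 3 higher genes of the list, INSIG1 was the one above 2-fold. In siSQLE libraries INSIG1 had 23.4 to 25.3 CPM, and siFDPS was above them (log2 fold change 1.14, adjusted p = 3.9e-05).

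Among exporters of cholesterol, ABCG1 fell from 3.50 to 4.01 CPM in siNC to 0.249 to 0.444 CPM in siFDPS libraries (log2 fold change −3.36, adjusted p = 6.3e-05). It was also low in siYY1 libraries (0.222 to 0.375 CPM). Its most counted transcript was not the same in the 6 libraries. ABCA1, the other main exporter, had 168 to 202 CPM in siNC and 178 to 184 CPM in siFDPS libraries, with a log2 fold change of 0.02 ± 0.0819. OSBPL1A, an oxysterol-binding protein of late endosomes, rose with a log2 fold change of 0.71 (adjusted p = 0.001).

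Fatty acid synthesis and desaturation genes were mostly lower, with 14 of 23 lower (60.9%), 3 higher (13.0%) and a median log2 fold change of −0.59. All 5 desaturases were lower. FADS2, which makes the first double bond of long polyunsaturated fatty acids, had 124, 118 and 98.5 CPM in siNC and 21.6, 22.8 and 28.7 CPM in siFDPS libraries (log2 fold change −2.22 ± 0.136, adjusted p = 4.2e-05). SCD, the main desaturase for oleate, had 1650, 1710 and 1520 CPM in siNC and 957, 989 and 936 CPM in siFDPS libraries (log2 fold change −0.76 ± 0.0593, adjusted p = 9.5e-05). FASN, which builds palmitate, fell from 295 to 420 CPM to 173 to 212 CPM (log2 fold change −0.93, adjusted p = 0.0021). For these 3 genes every siFDPS library was below every siNC library. The elongases ELOVL7 and ELOVL1 rose, with log2 fold changes of 0.59 and 0.48.

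Against siSQLE libraries FADS2, SCD and FASN were lower in siFDPS, with log2 fold changes of −2.61, −0.86 and −0.95, and against siYY1 libraries with −1.57, −0.65 and −0.88, all past the threshold. Of 22 tested members of the list, 13 were lower and 4 higher in siFDPS than in siSQLE libraries. FADS2 shares its strand and position in part with FEN1, a nuclease of DNA replication.

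Glycolysis and hypoxia response genes were lower in 30 of 40 tested (75.0%) and higher in 3 (7.5%), with a median log2 fold change of −0.53. Of the 20 glycolytic enzymes and regulators, 15 were lower. Both glucose transporters, all 4 genes for the exit of pyruvate and lactate and 9 of 14 hypoxia response genes were lower as well. In these 3 roles no gene was higher, at an unadjusted p under 0.05 with edgeR or with DESeq2 either. LDHA, which turns pyruvate into lactate, had 2900, 3180 and 2860 CPM in siNC and 1150, 1060 and 1030 CPM in siFDPS libraries (log2 fold change −1.47 ± 0.0682, adjusted p = 1.6e-05). ALDOC, an aldolase, had 61.2, 68.0 and 66.1 CPM in siNC and 11.3, 11.5 and 12.4 CPM in siFDPS libraries (log2 fold change −2.47 ± 0.077, adjusted p = 8e-06). PFKFB4, which sets the level of an activator of phosphofructokinase, had 54.7, 61.8 and 57.3 CPM in siNC and 12.4, 10.4 and 10.6 CPM in siFDPS libraries (log2 fold change −2.38 ± 0.0997, adjusted p = 1.3e-05). No siFDPS library reached the lowest library of siNC, siSQLE or siYY1 for these 3 genes.

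SLC2A1, the glucose transporter GLUT1, fell from 161, 171 and 152 CPM to 88.6, 87.5 and 89.5 CPM (log2 fold change −0.87, adjusted p = 6.7e-05), and siSQLE libraries were lower still, at 70.0 to 80.6 CPM. HK2, a hexokinase of tumour cells, fell by 0.74 on the log2 scale. In siSQLE and siYY1 libraries HK2 was higher than in siNC, at 119 to 146 and 108 to 125 CPM, so siFDPS was below siSQLE by a log2 fold change of −2.01 and below siYY1 by −1.77. CA9, a carbonic anhydrase and a widely used hypoxia marker, was low throughout, with 3.45 to 4.57 CPM in siNC and 0.0576 to 0.337 CPM in siFDPS libraries (log2 fold change −4.38 ± 0.475, adjusted p = 0.00037). The higher genes of the list included PFKFB2 (log2 fold change 1.05) and the hexokinase HK1 (0.67). In siFDPS against siSQLE libraries, 30 of 40 members were lower and 5 higher, and against siYY1 libraries 22 were lower and 11 higher.

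Of the 30 genes lower than in siNC, 13 overlap no other annotated gene with counts on the same strand, and 18 have the same most counted transcript in all 6 libraries.

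**Figure D4:**
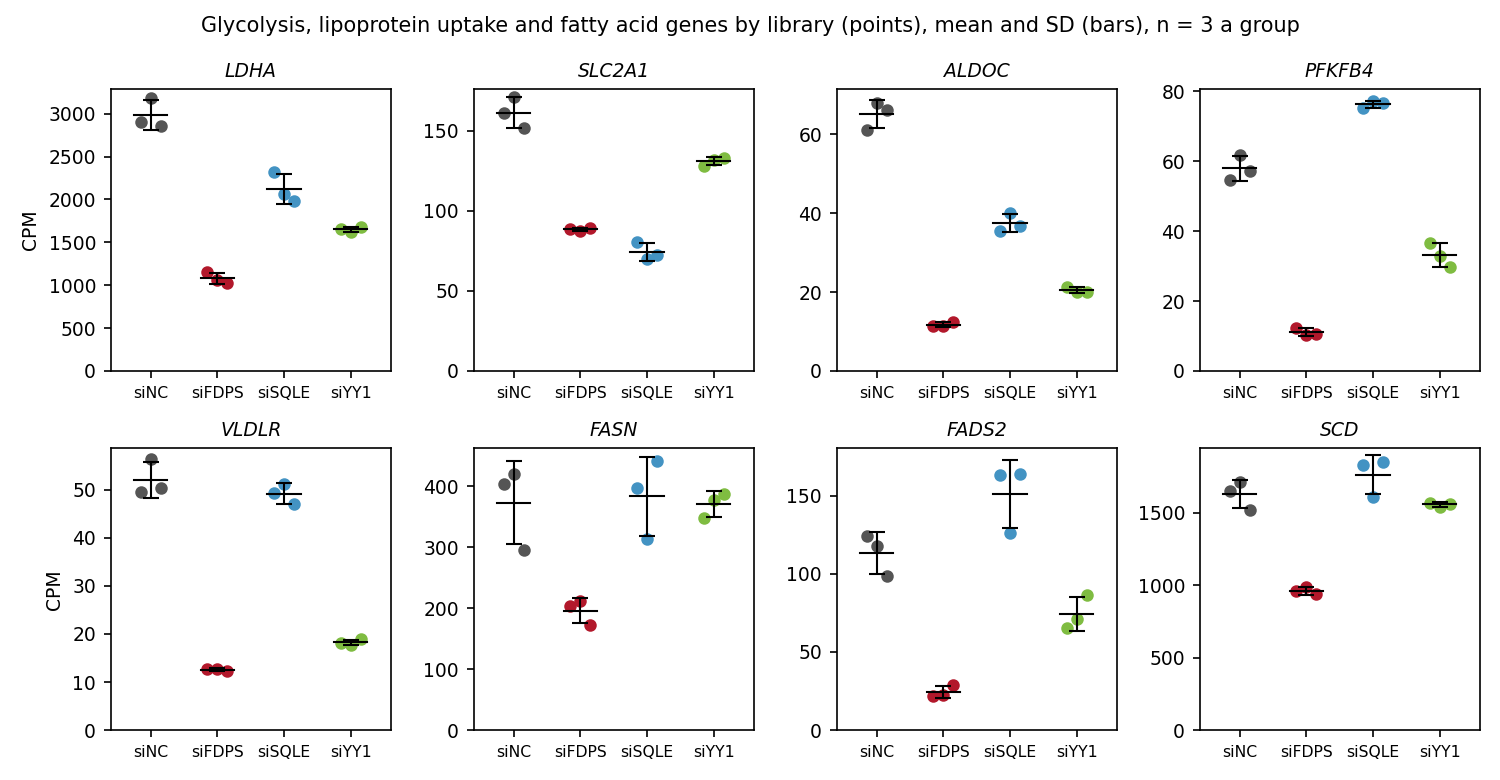
CPM of 4 glycolysis genes (LDHA, SLC2A1, ALDOC, PFKFB4) and 4 lipid genes (VLDLR, FASN, FADS2, SCD) in each of 12 libraries (points), with the mean as a line and the SD as error bars (n = 3 a group); each vertical axis starts at 0. The siFDPS libraries are the lowest in every panel except SLC2A1, where the siSQLE libraries are lower.

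Mitosis genes fell by small amounts in large number. Of 54 tested, 38 were lower (70.4%) and 3 higher (5.56%), with a median log2 fold change of −0.57, and 6 of the 38 were lower by at least 2-fold. In bulk RNA, fewer cells in mitosis and less RNA per cell cannot be told apart. KIF20A, a kinesin of cytokinesis, had 74.3, 71.9 and 62.9 CPM in siNC and 27.4, 28.4 and 30.9 CPM in siFDPS libraries (log2 fold change −1.27 ± 0.0863, adjusted p = 5.8e-05). NUF2, a kinetochore protein, had 36.7, 29.1 and 40.3 CPM in siNC and 14.1, 13.5 and 15.9 CPM in siFDPS libraries (log2 fold change −1.29 ± 0.135, adjusted p = 0.00032). CDK1, the kinase that starts mitosis, fell from 71.4 to 95.3 CPM to 49.4 to 54.9 CPM (log2 fold change −0.72, adjusted p = 0.0021). By role, 13 of 14 spindle and cytokinesis genes, 10 of 14 mitotic kinases and cyclins and all 6 genes of chromosome structure were lower, against 4 of 11 kinetochore and checkpoint genes. PLK1, another mitotic kinase, fell with a log2 fold change of −0.79 (adjusted p = 0.00056), and no siFDPS library reached the lowest siNC library for any of these 4 genes.

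CCNB1 and MKI67 fell by less. CCNB1, cyclin B1, fell by 0.35 on the log2 scale (adjusted p = 0.014), and its call was lost without siFDPS replicate 1 or 2 (adjusted p = 0.058 and 0.061). The proliferation marker MKI67 fell by 0.37 (adjusted p = 0.041) and its call was lost without any library but siNC replicate 3 (adjusted p = 0.076 to 0.13). This call was also lost with all 12 libraries in one fit (adjusted p = 0.22), the replicate block (0.055) or no filter on low counts (0.067). The higher members were MYBL2, a transcription factor of the cell cycle (log2 fold change 0.92), ZWINT (0.59) and INCENP (0.36), the last of which was named after its value was seen. Against siSQLE libraries 44 of 54 mitosis genes were lower in siFDPS and 1 was higher, where 25.7% of all genes were lower. Against siYY1 libraries 53 were lower and 1 higher, where 29.0% of all genes were lower. CDK1 had 95.4 to 123 CPM in siSQLE and 174 to 180 CPM in siYY1 libraries. siYY1 libraries were above siNC, past the threshold, for CDK1 (1.03), CCNB1 (0.83), KIF20A (0.25), MYBL2 (2.49) and ZWINT (1.85). They did not differ from siNC past the threshold for PLK1 (0.38), NUF2 (0.09) or MKI67 (0.57).

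DNA replication genes did not follow the mitosis genes. Of 53 tested, 10 were higher (18.9%) and 17 lower (32.1%), near the background, with a median log2 fold change of −0.09. By role, 4 of 5 nucleotide supply genes were lower and none higher. Of 5 E2F and cyclin E genes, 2 were higher and none lower, against 1 lower with DESeq2. Origin and helicase genes were higher in 4 of 23 and lower in 8, and polymerase and fork genes in 4 and 5 of 20. GINS2, part of the replicative helicase, fell from 10.5 to 11.2 CPM to 4.57 to 5.29 CPM (log2 fold change −1.16, adjusted p = 0.00018), and POLA1, the catalytic subunit of DNA polymerase alpha, fell from 48.2 to 53.2 CPM to 21.4 to 23.4 CPM (log2 fold change −1.19, adjusted p = 3.9e-05). MCM2, another helicase subunit, rose from 78.4 to 89.7 CPM to 130 to 155 CPM (log2 fold change 0.73, adjusted p = 0.00047). PCNA, the sliding clamp, did not pass the threshold (log2 fold change −0.28, adjusted p = 0.074), but did with the replicate block (adjusted p = 0.021), with all 12 libraries in one fit (adjusted p = 0.037) and without siNC replicate 2 (−0.34, adjusted p = 0.048). ORC6 of the origin recognition complex rose with a log2 fold change of 0.88 (adjusted p = 0.0018). E2F1, the factor that drives many of these genes, rose by 0.32, a call that was lost without any of the siFDPS libraries (adjusted p = 0.057 to 0.071). This call was also lost with the replicate block (adjusted p = 0.053) or no filter on low counts (0.065). RRM2, a subunit of ribonucleotide reductase, had 65.5 CPM in siNC replicate 1 and 20.7 to 27.6 CPM in the other 5 libraries, and its log2 fold change of −0.64 (adjusted p = 0.26) was 0.08 without that library. Against siYY1 libraries, 52 of the 53 genes were lower in siFDPS and 1 was higher, where 29.0% of all genes were lower. Among the named genes, siYY1 libraries were themselves above siNC for MCM2 (1.71), PCNA (1.27), E2F1 (2.30), GINS2 (2.55), POLA1 (1.26) and ORC6 (1.84). These differences passed the threshold, and that of RRM2 did not (0.08).

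Of 7 CDK inhibitors, which hold back the cell cycle, 4 were lower, 1 was higher and 2 did not pass the threshold. CDKN1A, the p53 target p21, had 97.0, 82.3 and 73.3 CPM in siNC and 29.0, 24.3 and 25.3 CPM in siFDPS libraries (log2 fold change −1.69 ± 0.123, adjusted p = 7.4e-05). CDKN1C, the inhibitor p57, had 79.8, 70.6 and 64.6 CPM in siNC and 17.8, 14.6 and 13.0 CPM in siFDPS libraries (log2 fold change −2.24 ± 0.143, adjusted p = 4.8e-05). The siFDPS and siNC libraries did not overlap for either gene. CDKN2B, the inhibitor p15, went up from 7.66 to 8.46 CPM to 18.2 to 20.7 CPM (log2 fold change 1.31, adjusted p = 8.1e-05). In the other knockdowns CDKN1A was at 31.3 to 35.8 CPM in siSQLE and 20.4 to 22.1 CPM in siYY1 libraries, and CDKN1C was at 6.11 to 12.7 CPM and 1.50 to 1.98 CPM. In the whole list of G1 control and p53 targets, 15 of 32 were lower (46.9%) and 4 higher (12.5%). MDM2 fell by 0.49 on the log2 scale, a call that was lost without siFDPS replicate 3 (adjusted p = 0.056). GDF15 rose by 0.57, a call that was lost without siFDPS replicate 1 (adjusted p = 0.06).

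Interferon response genes were the list with the lowest median. Of 46 tested, 35 were lower (76.1%), 19 of them by at least 2-fold, and the median log2 fold change was −0.85. No member was higher with edgeR or DESeq2 at the adjusted threshold, and 1 was at an unadjusted p under 0.05 with edgeR. Genes that interferon induces were lower in 23 of 28, the factors and sensors in 6 of 9, and the MHC class I genes in 6 of 9. IFIT2, which binds viral RNA, had 184, 182 and 213 CPM in siNC and 24.3, 24.2 and 20.7 CPM in siFDPS libraries (log2 fold change −3.06 ± 0.105, adjusted p = 9.7e-06). OASL, a relative of the 2′-5′ oligoadenylate synthetases, had 50.7, 50.7 and 48.3 CPM in siNC and 4.86, 5.29 and 5.09 CPM in siFDPS libraries (log2 fold change −3.30 ± 0.0762, adjusted p = 8e-06). IFIT1, which binds viral RNA caps, had 96.1, 80.3 and 99.1 CPM in siNC and 16.9, 15.3 and 15.5 CPM in siFDPS libraries (log2 fold change −2.53 ± 0.102, adjusted p = 1.2e-05).

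ISG15, a ubiquitin-like protein, fell from 46.2 to 64.5 CPM to 15.3 to 23.7 CPM (log2 fold change −1.54, adjusted p = 0.00068). B2M, the light chain of MHC class I, had 902, 493 and 944 CPM in the siFDPS and 1080 to 1250 CPM in the siNC libraries. Its log2 fold change of −0.55 did not pass the threshold with edgeR (adjusted p = 0.086), but did with DESeq2 (adjusted p = 0.034), with the replicate block (adjusted p = 0.045) and without siFDPS replicate 2, where it was −0.29 (adjusted p = 0.038).

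Interferon genes were also lower in siFDPS than in siSQLE libraries. Of 46 tested, 29 were lower and 6 higher in siFDPS than in siSQLE libraries, with a median log2 fold change of −0.93. IFIT1 had 71.3 to 89.7 CPM in siSQLE and 21.1 to 23.7 CPM in siYY1 libraries, and siFDPS was below both (log2 fold change −2.27 and −0.43). OASL was lower in siFDPS than in siSQLE and siYY1 libraries by −2.69 and −1.43, and IFIT2 by −1.64 and −0.72, all past the threshold. ISG15 was lower than in siSQLE (−1.30) and did not differ from siYY1 past the threshold (0.43 ± 0.163). Over the list, 18 genes were higher and 14 lower in siFDPS than in siYY1 libraries. Of the 35 genes lower than in siNC, 20 have the same most counted transcript in all 6 libraries, and IFIT2 and ISG15 are not among these 20.

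**Figure D5:**
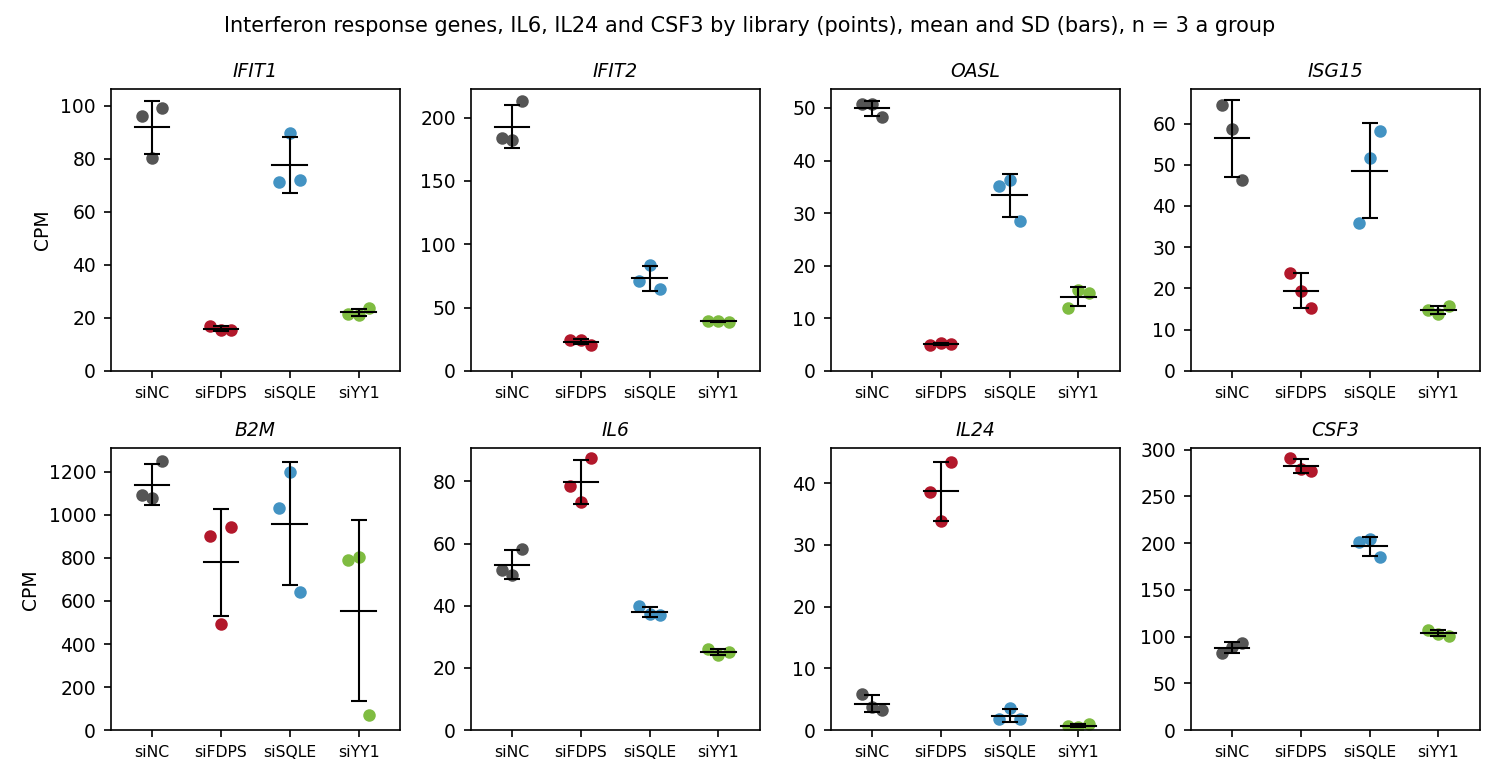
CPM of the interferon response genes IFIT1, IFIT2, OASL, ISG15 and B2M and of the cytokines IL6, IL24 and CSF3 in each of 12 libraries (points), with the mean as a line and the SD as error bars (n = 3 a group); each vertical axis starts at 0. IFIT1, IFIT2 and OASL are lowest in siFDPS libraries, and IL6, IL24 and CSF3 are highest there.

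Inflammatory cytokines were mostly higher. In the list of inflammatory cytokines and NF-kB genes, 19 of 36 were higher (52.8%) and 6 lower (16.7%), with a median log2 fold change of 0.51, and of the 13 cytokines 10 were higher and 1 lower. By at least 2-fold, 4 genes of the list were higher and 4 lower. IL24, a cytokine of the IL10 family, had 5.82, 3.74 and 3.32 CPM in siNC and 38.6, 33.9 and 43.5 CPM in siFDPS libraries (log2 fold change 3.17 ± 0.227, adjusted p = 7e-05). CSF3, the granulocyte colony-stimulating factor, had 82.1, 89.3 and 93.3 CPM in siNC and 291, 279 and 277 CPM in siFDPS libraries (log2 fold change 1.68 ± 0.0667, adjusted p = 1.2e-05). IL6 rose from 49.8 to 58.4 CPM to 73.5 to 87.5 CPM (log2 fold change 0.58, adjusted p = 0.002). All 3 were higher in siFDPS than in siSQLE and siYY1 libraries, past the threshold. IL24 was only 1.75 to 3.57 CPM in siSQLE and 0.564 to 1.07 CPM in siYY1 libraries.

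Chemokines were split, with 4 of 10 higher and 3 lower. CXCL1 rose by 0.54 on the log2 scale, but siSQLE libraries were far higher, at 187 to 237 CPM against 81.6 to 87.2 CPM in siFDPS. CXCL16 fell with a log2 fold change of −2.27. BIRC3, an apoptosis inhibitor that NF-kB induces, fell from 60.8 to 70.3 CPM to 18.6 to 25.2 CPM (log2 fold change −1.63, adjusted p = 0.00013). CXCL8 (0.19, adjusted p = 0.29) and NFKBIA (−0.20, adjusted p = 0.11) did not pass the threshold. Without siNC replicate 3, CXCL8 did (0.36, adjusted p = 0.026).

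Among the immediate early and growth factor response genes, 11 of 31 were higher (35.5%) and 7 lower (22.6%). The phosphatase DUSP1, which switches off stress kinases, rose from 52.5 to 71.0 CPM to 141 to 151 CPM (log2 fold change 1.29, adjusted p = 0.00021), and IER3 rose with a log2 fold change of 1.30. DUSP6, a phosphatase of ERK, fell from 40.4 to 45.0 CPM to 21.2 to 27.8 CPM (log2 fold change −0.89, adjusted p = 0.00089). KLF2, a transcription factor that statins are known to induce in endothelium, was scarce and fell from 1.91 to 2.18 CPM to 0.211 to 0.674 CPM (log2 fold change −2.45, adjusted p = 0.003). EGR1 (0.35) and FOSL1 (−0.20) did not pass the threshold. The count of 7 lower genes was 3 or 4 without siNC replicate 1 or any of the siFDPS libraries. JUN fell by 0.32 on the log2 scale, a call that was lost without any library but siNC replicate 3 (adjusted p = 0.076 to 0.15). This call was also lost with all 12 libraries in one fit (adjusted p = 0.052) or no filter on low counts (0.075). JUNB fell by 0.96, a call that was lost without siNC replicate 1 or 2 or siFDPS replicate 2 or 3 (adjusted p = 0.06 to 0.071).

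Stress response genes were higher more often than the background. Of 48 genes of the ATF4 and unfolded protein responses, 26 were higher (54.2%) and 12 lower, with a median log2 fold change of 0.36. With a change of at least 2-fold required the balance turned, with 2 higher and 5 lower, where 7.34% of all genes tested were higher and 11.8% lower. PPP1R15A (GADD34), which restarts translation after stress, had 32.3, 37.1 and 30.6 CPM in siNC and 164, 142 and 154 CPM in siFDPS libraries (log2 fold change 2.20 ± 0.0957, adjusted p = 1.4e-05). ATF4, the main factor of the integrated stress response, had 214, 233 and 226 CPM in siNC and 468, 427 and 434 CPM in siFDPS libraries (log2 fold change 0.98 ± 0.0608, adjusted p = 4.3e-05). DDIT3 (CHOP), a target of ATF4, had 14.0, 15.3 and 23.7 CPM in siNC and 48.3, 44.6 and 39.0 CPM in siFDPS libraries (log2 fold change 1.32, adjusted p = 0.002). The groups did not overlap for any of these genes, and all 3 were also higher in siFDPS than in siSQLE and in siYY1 libraries, past the threshold. Against siNC, PPP1R15A was also higher in siSQLE (1.20) and siYY1 libraries (1.67), as was ATF4 (0.32 and 0.52). DDIT3 did not pass the threshold there (0.19 and 0.05). Over the list, 21 of 48 genes were higher and 16 lower in siFDPS than in siSQLE libraries. Against siYY1 libraries 18 were higher and 23 lower, where 28.2% of all genes were higher and 29.0% lower.

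The genes for amino acid synthesis and transport, many of which ATF4 controls, were split, with 6 of 14 higher and 6 lower. ASNS, asparagine synthetase, rose from 22.6 to 27.9 CPM to 42.2 to 52.4 CPM (log2 fold change 0.97, adjusted p = 0.00059). ASNS was higher than in siSQLE libraries (0.69) and did not differ from siYY1 libraries past the threshold (0.02). SLC7A11, the cystine importer, had 339, 311 and 310 CPM in siNC and 90.6, 84.4 and 77.7 CPM in siFDPS libraries (log2 fold change −1.93 ± 0.0782, adjusted p = 1.2e-05), and siFDPS was below siSQLE (212 to 248 CPM) and siYY1 libraries (773 to 797 CPM), past the threshold. In the unfolded protein response, 12 of 18 were higher, among them the chaperone HSPA5 (BiP), which rose by 0.43 on the log2 scale. DNAJB9, a co-chaperone of HSPA5, fell from 25.3 to 32.8 CPM to 7.80 to 9.04 CPM (log2 fold change −1.83, adjusted p = 6.4e-05). TRIB3, a target of ATF4, rose by 0.61 on the log2 scale, a call that was lost without siNC replicate 2 or 3 or siFDPS replicate 1 or 2 (adjusted p = 0.075 to 0.09). TRIB3 was lower in siFDPS than in siSQLE (−0.75) and siYY1 libraries (−1.18), past the threshold.

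Ribosome biogenesis genes were higher in 31 of 65 (47.7%) and lower in 15 (23.1%), with a median log2 fold change of 0.20. NOLC1, a nucleolar phosphoprotein, rose from 72.9 to 121 CPM to 177 to 236 CPM (log2 fold change 1.04, adjusted p = 0.0044) and RRP12, which helps to export the small subunit, by 0.92 on the log2 scale. FBL, the methyltransferase fibrillarin, rose by 0.34, and NCL, nucleolin, did not pass the threshold (0.05). WDR36 and the helicase DDX18 fell, with log2 fold changes of −0.72 and −0.68. The count of 15 lower genes was 6 to 9 without siNC replicate 1 or any of the siFDPS libraries. MYC, the factor that drives these genes in many tumours, varied among the siNC libraries, with 52.3, 2.97 and 34.5 CPM, and had 3.61, 5.88 and 3.48 CPM in siFDPS libraries. The siFDPS libraries therefore lay within the range of siNC. Its log2 fold change was −2.79 ± 0.893 (adjusted p = 0.037), and the call was lost without any library but siNC replicate 2 (adjusted p = 0.071 to 0.11). This call was also lost with the replicate block (adjusted p = 0.17) or no filter on low counts (0.052).

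Respiratory chain genes were higher in 19 of 89 (21.3%) and lower in 23 (25.8%), both near the background, with a median log2 fold change of 0.02. The count of 19 higher genes was 9 to 12 without any library but siNC replicate 3. Of the 13 genes encoded in mitochondria, 1 was higher and none lower, with log2 fold changes between −0.01 and 0.21. No gene of this role was lower at an unadjusted p under 0.05 in edgeR or with DESeq2. Single subunits of complex I moved in opposite directions. NDUFV2 fell from 76.2 to 92.8 CPM to 29.8 to 34.4 CPM (log2 fold change −1.43, adjusted p = 6.4e-05), NDUFB1 fell with a log2 fold change of −1.61, and NDUFA8 rose from 48.0 to 52.0 CPM to 92.1 to 104 CPM (log2 fold change 0.99, adjusted p = 6.9e-05). NDUFS1 of complex I fell by 0.28, and ATP5MF of the ATP synthase rose by 0.60. COX4I1 of complex IV rose by 0.25, a call that was lost without siNC replicate 1 or 2 or siFDPS replicate 3 (adjusted p = 0.063 to 0.085). This call was also lost with no filter on low counts (adjusted p = 0.063).

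Proteasome genes were higher in 11 of 40 (27.5%) and lower in 13 (32.5%). The largest changes were in members outside the standard core particle. NFE2L1, the transcription factor that raises proteasome genes when the proteasome is short, had 156, 154 and 150 CPM in siNC and 459, 409 and 422 CPM in siFDPS libraries (log2 fold change 1.49 ± 0.06, adjusted p = 1.2e-05), and did not differ past the threshold from siSQLE libraries (443 to 509 CPM, log2 fold change −0.11 ± 0.077). PSMD2, a subunit of the regulatory particle, rose with a log2 fold change of 1.06 (adjusted p = 2.6e-05), and PSMB5, a catalytic subunit of the core, did not pass the threshold (−0.18, adjusted p = 0.45). PSMB10, a catalytic subunit of the immunoproteasome, fell from 63.9 to 79.0 CPM to 18.5 to 22.1 CPM (log2 fold change −1.79, adjusted p = 4.4e-05). PSME2, a subunit of the PA28 activator, fell from 114 to 137 CPM to 46.5 to 47.7 CPM (log2 fold change −1.40, adjusted p = 3.4e-05). PSME3, the nuclear activator PA28 gamma, had 89.7 CPM in siNC replicate 2 and 207 to 229 CPM in the other 5 libraries, and did not pass the threshold (log2 fold change 0.38, adjusted p = 0.35).

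RAC1, which drives lamellipodia, had 170, 162 and 182 CPM in siNC and 443, 427 and 432 CPM in siFDPS libraries (log2 fold change 1.34 ± 0.0585, adjusted p = 1.4e-05). The groups were far apart, and RAC1 was at 417 to 498 CPM in siSQLE and 407 to 424 CPM in siYY1 libraries, with a difference of −0.02 ± 0.0808 from siSQLE that did not pass the threshold. CDC42, which shapes filopodia and cell polarity, rose by 0.34 on the log2 scale. CDC42 was higher in siFDPS than in siSQLE libraries, which held 124 to 168 CPM (log2 fold change 1.06, adjusted p = 0.00043).

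Among protein kinases that act on actin, LIMK1, which blocks the actin-severing protein cofilin, rose from 72.1 to 84.9 CPM to 168 to 178 CPM (log2 fold change 1.11, adjusted p = 6.1e-05). It was higher in siFDPS than in siSQLE (0.81) and siYY1 libraries (1.83). PAK2, a kinase that RAC1 and CDC42 activate, was lower in siFDPS than in all libraries of the other 3 groups, at 92.7 to 102 CPM against 218 to 232 CPM in siNC and 309 to 325 CPM in siSQLE. Among the enzymes that use isoprenoids, changes were under 2-fold. Of 17 genes, 3 were higher (17.6%) and 5 lower (29.4%). PGGT1B, the catalytic subunit of the enzyme that adds geranylgeranyl groups to proteins, fell from 43.3 to 50.4 CPM to 24.8 to 25.5 CPM (log2 fold change −0.87, adjusted p = 0.00019) and was lower than in siSQLE (−0.59) and siYY1 libraries (−0.43). ICMT, which methylates prenylated proteins, rose with a log2 fold change of 0.89 and did not differ from siSQLE past the threshold (−0.07 ± 0.097). DHDDS, which makes dolichol chains, rose by 0.60, SRD5A3 of the same branch fell by 0.95, and RABGGTB, a subunit of the enzyme for Rab proteins, did not pass the threshold (0.03).

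Actin and SRF target genes were higher in 12 of 21 (57.1%), with a median log2 fold change of 0.41. None was lower past the threshold with edgeR, against 1 at an unadjusted p under 0.05 and 1 with DESeq2. TPM4, a tropomyosin, had 97.1, 60.1 and 96.5 CPM in siNC and 940, 882 and 789 CPM in siFDPS libraries (log2 fold change 3.36 ± 0.202, adjusted p = 3.9e-05). TPM4 was also high in siSQLE (536 to 715 CPM) and siYY1 libraries (605 to 628 CPM), and its most counted transcript was not the same in all 6 libraries. TAGLN, an actin-binding protein of smooth muscle, rose from 4.73 to 5.94 CPM to 13.5 to 17.0 CPM (log2 fold change 1.54, adjusted p = 0.00018), and siSQLE libraries held more, at 21.8 to 22.5 CPM. ACTA2, smooth muscle actin, did not pass the threshold (0.08). The rise of ACTB by 0.42 was lost without siNC replicate 2 or 3 or siFDPS replicate 2 or 3 (adjusted p = 0.06 to 0.1). It was also lost with all 12 libraries in one fit (adjusted p = 0.22), the replicate block (0.055) or no filter on low counts (0.059). Against siSQLE libraries, 8 of 21 genes were lower and 4 higher in siFDPS.

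Targets of YAP and TAZ, coactivators that respond to the actin cytoskeleton, were higher in 11 of 23 and lower in 4. Over the list with its factors, 14 of 29 were higher (48.3%) and 5 lower (17.2%). CYR61 had 172, 172 and 169 CPM in siNC and 333, 308 and 349 CPM in siFDPS libraries (log2 fold change 0.95 ± 0.057, adjusted p = 3.9e-05). CTGF had 25.2, 23.2 and 27.9 CPM in siNC and 63.7, 58.7 and 63.5 CPM in siFDPS libraries (log2 fold change 1.28 ± 0.0871, adjusted p = 5.8e-05). F3, tissue factor, had 68.2, 69.1 and 74.9 CPM in siNC and 301, 288 and 301 CPM in siFDPS libraries (log2 fold change 2.07 ± 0.06, adjusted p = 8e-06). The groups were far apart for these 3 genes. ANKRD1 rose as well (log2 fold change 1.77), and NT5E and ASAP1 fell, with log2 fold changes of −1.03 and −0.73. CYR61 was higher than in siSQLE libraries (0.96, adjusted p = 5.3e-05), whereas CTGF (0.14 ± 0.0662) and F3 (0.00 ± 0.0636) did not differ from siSQLE past the threshold. YAP1 had 162, 173 and 60.9 CPM in siFDPS and 182 to 199 CPM in siNC libraries and did not pass the threshold (−0.54, adjusted p = 0.24), with 4 different most counted transcripts among the 6 libraries. WWTR1, which encodes TAZ, fell from 181 to 227 CPM to 131 to 136 CPM (−0.60, adjusted p = 0.0018). It was the 1 lower of the 6 factors, of which 3 were higher, and another annotated gene overlaps it on the same strand.

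Epithelial genes were lower more often than the background. Of 19 genes of epithelial junctions, keratins and factors tested, 1 was higher (5.26%) and 11 lower (57.9%). Of the 7 mesenchymal genes tested, 1 was higher and 1 lower, so that of the 26 genes of the list 2 were higher (7.69%) and 12 lower (46.2%). JUP, plakoglobin of cell junctions, had 97.1, 103 and 89.9 CPM in siNC and 20.6, 26.9 and 25.5 CPM in siFDPS libraries (log2 fold change −1.99 ± 0.114, adjusted p = 3.4e-05), and was lower than in siSQLE (−1.47) and siYY1 libraries (−0.42). CDH1, E-cadherin, was at most 0.231 CPM in each of the 6 libraries and was not tested. CDH2, N-cadherin, had 212 to 220 CPM in siNC and 201 to 212 CPM in siFDPS libraries (−0.07 ± 0.0484), and vimentin (VIM) rose by 0.17 on the log2 scale. S100A4 fell from 7.10 to 8.14 CPM to 2.13 to 3.64 CPM (log2 fold change −1.32), and the junction protein DSP rose by 0.30. None of the 4 mesenchymal factors tested was called in either direction with edgeR or DESeq2, and 1 was higher and 1 lower at an unadjusted p under 0.05 with edgeR. SNAI2 had 18.8, 60.4 and 55.7 CPM in siFDPS and 18.6 to 24.8 CPM in siNC libraries. It did not pass the threshold (1.05, adjusted p = 0.067), but did with all 12 libraries in one fit (1.07, adjusted p = 0.035) and without siFDPS replicate 1 (1.43, adjusted p = 0.00084). ZEB1, unlike SNAI2, had a single high siFDPS library, with 24.1, 24.9 and 71.3 CPM against 24.1 to 45.3 CPM in siNC libraries. Its log2 fold change of 0.23 was −0.47 without that library.

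Over all genes with a mean of at least 1000 counts, the 10 genes that rose most included TPM4 and IL24, and the 10 that fell most included OASL, CTSS and IFIT2. TFPI2, a secreted protease inhibitor, had 114, 94.0 and 114 CPM in siNC and 1060, 936 and 996 CPM in siFDPS libraries (log2 fold change 3.21 ± 0.0979, adjusted p = 8e-06). LCP1, the actin-bundling protein L-plastin, had 3.93, 4.32 and 3.32 CPM in siNC and 48.3, 46.8 and 46.4 CPM in siFDPS libraries (log2 fold change 3.61 ± 0.115, adjusted p = 8e-06). SLC16A9, a transporter, had 6.84, 7.72 and 8.26 CPM in siNC and 49.9, 45.2 and 46.4 CPM in siFDPS libraries (log2 fold change 2.63, adjusted p = 1.1e-05). For these genes the 3 siFDPS libraries were the highest of the 12. Against siSQLE the log2 fold changes of TFPI2, LCP1 and SLC16A9 were 2.48, 2.07 and 3.61, and against siYY1 they were 2.79, 1.12 and 1.42, all past the threshold. CDK14, a cyclin-dependent kinase, rose with a log2 fold change of 3.48 and differed past the threshold from neither siSQLE (−0.03 ± 0.0767) nor siYY1 libraries (0.08 ± 0.0687).

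Further rising genes were AL353625.1 (3.25), which overlaps IGF2R, RAP1GAP2 (2.82), SPOCD1 (2.78) and the histone deacetylase HDAC9 (2.72). HDAC9 had 16.7, 16.1 and 10.3 CPM in siNC and 76.7, 73.4 and 135 CPM in siFDPS libraries, and its most counted transcript was not the same in all of them. RAP1GAP2 switches off the GTPase RAP1 and did not differ from siYY1 past the threshold (0.03).

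On the falling side, RAPGEF3 (EPAC1), which activates RAP1 in response to cyclic AMP, had 54.8, 68.0 and 60.3 CPM in siNC and 3.74, 3.66 and 3.09 CPM in siFDPS libraries (log2 fold change −4.13 ± 0.13, adjusted p = 8e-06). MEGF6, a protein with EGF-like repeats, had 39.9, 51.9 and 37.4 CPM in siNC and 2.28, 1.81 and 1.51 CPM in siFDPS libraries (log2 fold change −4.53 ± 0.209, adjusted p = 1.6e-05). SH3BGRL had 205, 189 and 235 CPM in siNC and 24.6, 23.6 and 23.0 CPM in siFDPS libraries (log2 fold change −3.14 ± 0.0976, adjusted p = 8e-06). For these genes the 3 siFDPS libraries were the lowest of the 12. SLC48A1, a heme transporter of lysosomes and endosomes, fell from 70.1 to 83.3 CPM to 3.85 to 6.18 CPM (log2 fold change −3.88), against the direction of most lysosome genes. It overlaps RAPGEF3 on the opposite strand of chromosome 12. As the strand setting is not given, reads of one may have been counted for the other, and their falls may not be separate results. Other genes were not screened for overlaps on opposite strands. CYFIP2 (−3.10), the lipid transporter ABCA2 (−2.93) and TMEM64 (−2.76) fell too, and TMEM64 did not differ past the threshold from siSQLE libraries (0.00 ± 0.119). CYFIP2 had 37.1, 40.8 and 37.1 CPM in siNC and 2.99, 5.42 and 4.97 CPM in siFDPS libraries, with a change of the most counted transcript among them.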

How the data were processed

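RNA of T24 cells was sequenced in 12 libraries, 3 in each of 4 groups. The deposited values are raw counts, one row for each annotated transcript (206601 transcripts, 58735 genes), which the authors neither normalized nor pooled. The submitters' processing notes name Trimmomatic 0.36, STAR 2.5.3, featureCounts, Subread 1.5.1 and GRCh38. Per the labels the kit was stranded and carried molecular identifiers of 8 bases. Whether identifiers were used to remove duplicates, the strand setting and the division of reads between transcripts and overlapping genes are not given in the sources used here, and each can change the value of a gene.

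Counts were summed for each gene. siFDPS was compared with siNC, siSQLE and siYY1 in separate fits, each on 6 libraries, with edgeR 4.0.16 under R 4.3.3 (quasi-likelihood test, TMM, filterByExpr defaults, Benjamini-Hochberg adjustment, threshold 0.05). The siSQLE and siYY1 libraries were each compared with siNC in the same way. The standard error was obtained from the F statistic, as the size of the log2 fold change over the root of F. CPM used TMM factors over the 12 libraries, whereas the summed levels of cell type markers used the total counts alone. Data were simulated for siFDPS against siNC from the spread of the siNC libraries, with 200 genes changed and 18986 tested. In them 62% of 2-fold and 97% of 4-fold changes were recovered, with 14 false calls. Figures were drawn with matplotlib 3.10.9.

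The comparison, the 18 gene lists and the preset genes were chosen with earlier results of these data known. Named were FDPS, preset members of each list, in each list the 2 strongest rises and 2 strongest falls past the threshold (mean of at least 200 counts, groups not overlapping), and over all genes the 10 strongest rises and falls (at least 1000 counts), without mevalonate enzymes and KEGG genes of ECM-receptor interaction and focal adhesion. Other genes named, such as TFE3, INCENP and WWTR1, were chosen after their values were seen. Alternatives were DESeq2 1.42.0, upper-quartile normalization, other filters on low counts, all 12 libraries in one fit, a threshold on the fold change, the replicate number as a block, and each library left out. Protein sequences were not used here, and 1 gene list and 7 genes of the rule are not reported here.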

Additional observations from a re-analysis of the deposited data

How the results depend on the processing

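Of 142 named genes with a fit, 121 kept their direction and their side of the threshold in all 12 alternative fits, 12 lost their call in at least 1 of them, 5 gained a call and 4 changed sign. The sign changes were in genes that no fit called: RABGGTB (−0.05 without siNC replicate 2), ABCA1 (−0.01 with upper-quartile normalization, −0.02 without siNC replicate 1 and without siNC replicate 3), RRM2 (0.08 without siNC replicate 1) and ZEB1 (−0.47 without siFDPS replicate 3). With each library left out in turn, these 4 ranged from −0.05 to 0.14, from −0.02 to 0.12, from −0.91 to 0.08 and from −0.47 to 0.50.

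The number of genes called was 9688, against 9496 with DESeq2, 9622 with upper-quartile normalization, 8743 without a filter on low counts, 8476 with a mean of at least 50 counts, 10048 with all 12 libraries in one fit and 8269 to 9157 with 1 library left out. With a change of at least 2-fold required, 1400 genes were higher and 2248 lower. The members higher and lower were then 0 and 0 for prenyl transfer, 6 and 1 for YAP and TAZ, 26 and 5 for lysosome and autophagy, 1 and 5 for cholesterol, 0 and 4 for fatty acids, 0 and 2 for DNA replication, 0 and 6 for mitosis, 1 and 7 for G1 control, 2 and 5 for ATF4 and the unfolded protein response, 1 and 1 for ribosome biogenesis, 0 and 3 for the respiratory chain, 1 and 8 for glycolysis and hypoxia, 3 and 2 for the proteasome, 2 and 2 for immediate early genes, 0 and 6 for epithelial and mesenchymal genes, 4 and 4 for cytokines, 4 and 0 for actin genes and 0 and 19 for interferon genes.

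Actin genes lower were 1 with DESeq2 and 1 with the replicate block, and interferon genes higher were 1 with all 12 libraries in one fit. Ribosome biogenesis genes lower were 9 without a filter, and respiratory chain genes higher were 12 with upper-quartile normalization and 10 without a filter. With 1 library left out, the range was 0 to 2 for actin genes lower, 3 to 6 for immediate early genes lower, 0 to 1 for interferon genes higher, 9 to 22 for respiratory chain genes higher and 6 to 11 for ribosome biogenesis genes lower. The cause of these shifts was not tested.

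Both of the following restrictions were chosen after seeing the data, and they count fewer genes by construction. Without genes that overlap another on the same strand, 23.9% of all genes tested were higher and 27.8% lower. Prenyl transfer then had 3 of 10 lower, YAP and TAZ 3 of 22 lower, cholesterol 1 of 12 higher and 6 lower, fatty acids 1 of 14 higher and 8 lower, DNA replication 6 of 40 higher, G1 control 2 of 22 higher and 9 lower, the respiratory chain 14 of 59 lower, glycolysis and hypoxia 13 of 20 lower and the proteasome 8 of 29 lower. Among genes with one most counted transcript, 25.2% were higher and 25.2% lower. Actin had 7 of 12 higher, cholesterol 6 of 13 lower, fatty acids 0 of 12 higher and 9 lower, glycolysis and hypoxia 18 of 24 lower, interferon 20 of 30 lower, and epithelial and mesenchymal genes 1 of 15 higher.

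Deviations from the group means correlated by 0.039, 0.012 and 0.008 between siNC and siFDPS libraries of the same replicate number. Between libraries of unlike numbers they correlated by −0.044 to 0.031. Little shared deviation was thus seen, but this does not show whether libraries of the same number were prepared together. With the replicate block 8964 genes were called, 4244 higher and 4720 lower. With 3 libraries a side, small changes can be missed. The simulation changed only 200 genes, whereas 50.8% of the genes tested were called in the data. Its 62% of 2-fold changes recovered therefore does not give the share recovered in this comparison.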
